A study of Homo sapiens with 4 samples.

Results

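The SLC25 family is the largest group of solute carriers in the inner mitochondrial membrane, and the genes described here are those whose symbol is SLC25A followed by a number. The symbol alone chose them, and 48 of the 50868 genes in the files carry such a symbol. RNA-seq was done on Jurkat T cells, an established line from a human T-cell leukemia, after 24 h in 4 conditions with 1 library each. The DMSO library is the solvent control, the JQ1 library had 0.5 µM JQ1, a small molecule that keeps the BET bromodomain proteins off acetylated chromatin, and the DMSO + PHA and JQ1 + PHA libraries had the same treatments with PHA at 150 ng/ml, a lectin from beans that binds surface receptors of T cells and activates them. The comparison of JQ1 with DMSO asks what BET inhibition does to resting cells, and the comparison of JQ1 + PHA with DMSO + PHA asks the same of stimulated cells. A leukemia line at 1 dose and 1 time stands for T cells here, and no condition had a replicate, so no test between conditions was made and no p-value is given.

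Total counts lay between 18620954 and 19685401 per library. All 10 T-cell markers examined, among them CD3E and TRAC, passed the filter described below. In each JQ1 comparison 9 of the 10 had a log2 ratio below 0, beside 5838 (without PHA) and 5923 (with PHA) of the 11503 genes past the filter. The B-cell gene CD79A had an FPKM of 7.48 in the DMSO and 1.06 in the JQ1 library, while MS4A1 and PAX5 had at most 0.0103. Of the 10 markers of myeloid, erythroid and epithelial cells, 4 had an FPKM of 0 in every library and the others reached at most 0.148.

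Each SLC25 carrier moves a small set of metabolites across the inner membrane, which is otherwise closed to them, and so couples the enzymes of the matrix to those of the cytosol. ADP/ATP carriers export the ATP made by oxidative phosphorylation, the aspartate-glutamate carriers serve the shuttle that brings cytosolic reducing power into the matrix, and other members supply cofactors, amino acids, nucleotides or iron. The proteins are encoded in the nucleus, made in the cytosol and brought to the inner membrane by the translocases TOM and TIM22. SLC25A17 resides in peroxisomes and SLC25A46 in the outer mitochondrial membrane.

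Values in all 4 libraries are given below in the order DMSO, JQ1, DMSO + PHA, JQ1 + PHA. The 48 genes together had 0.233%, 0.220%, 0.222% and 0.221% of all counts. Of the 48 genes, 34 reached a mean FPKM of 1 across the libraries, the filter used for all counts of genes, which 11503 of all genes passed. FPKM is the count per kilobase of gene in a library scaled to a fixed total, as the authors computed it. The 14 genes that failed the filter are described after the others. The levels spanned a wide range. SLC25A5, an ADP/ATP carrier, had an FPKM of 176, 151, 175 and 152, and took between 16% and 18.4% of the family's counts. The next highest by mean FPKM were SLC25A6, SLC25A3, SLC25A38 and SLC25A46, with 31.4, 23.3, 22.3 and 12.2. The order among genes depended on the length used, because the length behind the FPKM was longer than all annotated exons of the gene together for 35 of the 40 members with at least 20 counts in every library, and for 10613 of 12579 of all genes. In CPM per kilobase of the Ensembl canonical transcript (CPM is the count scaled to a fixed library total), SLC25A5 remained the highest with a mean of 292, and SLC25A29 had 30 and rank 5 instead of rank 26, while SLC25A15 had 4.83 and rank 33 instead of rank 11. Ratios of the shares of counts do not depend on this length, while ratios of FPKM do through the 0.1 added to them.

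**Figure D1:**
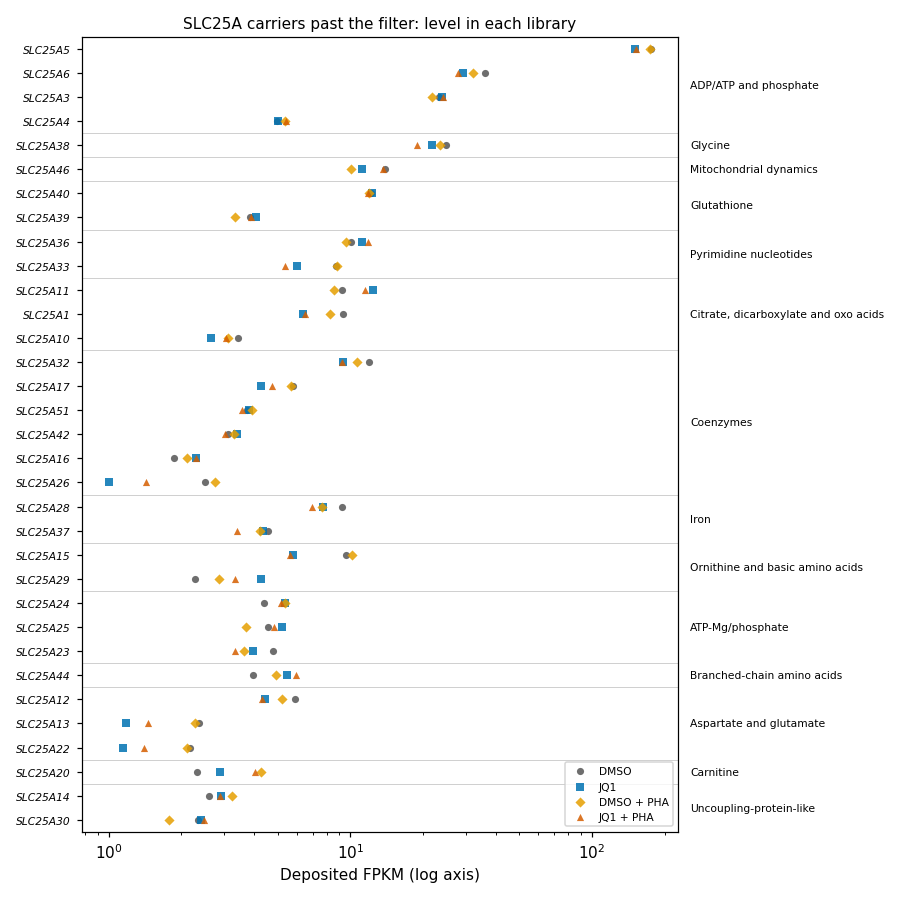
Deposited FPKM (x axis, log scale) of 33 of the 34 SLC25A genes past the filter, in rows grouped by the substrate they carry. Each symbol is 1 library (circle DMSO, square JQ1, diamond DMSO + PHA, triangle JQ1 + PHA). The 4 symbols of most genes lie close together beside the distance between genes, and those of SLC25A26 are the widest apart, from 1.0 with JQ1 to 2.76 with DMSO + PHA.

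With JQ1 most carriers differed by little from DMSO. A gene counts as past 2-fold when its ratio of FPKM, after 0.1 was added to each, is at least 2-fold. For JQ1 against DMSO, 0 of the 34 carriers were past 2-fold higher, where 5.22% of all genes were, and 1 (SLC25A26) was past 2-fold lower, where 8.65% of all genes were. For JQ1 + PHA against DMSO + PHA, 0 were higher and 0 were lower, beside 3.69% and 8.00% of all genes. At 1.5-fold, 1 carrier was higher with JQ1 (SLC25A29, 14.8% of all genes) and 5 were lower (among them SLC25A13, SLC25A15, SLC25A22 and SLC25A26, 14.7% of the 34 beside 19.3% of all genes). In the presence of PHA, 0 were 1.5-fold higher with JQ1 (11.7% of all genes) and 5 were lower (among them SLC25A13, SLC25A15, SLC25A26 and SLC25A33, 14.7% beside 17.8%). The median log2 ratio of the carriers was -0.13 without PHA and -0.13 with it, beside -0.01 and -0.02 for all genes. The median size of the log2 ratio, whatever its sign, was 0.29 and 0.24, beside 0.41 and 0.36.

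For single genes the log2 ratio of their shares of the counts is given below, with a 95% exact interval that covers counting error only. By that interval 8 carriers were above 0 and 17 below for JQ1 against DMSO, beside 36.9% and 38.7% of all genes, and 9 and 14 for JQ1 + PHA against DMSO + PHA, beside 34.6% and 38.2%. These comparisons share no library. In both, 17 carriers had a ratio below 0 and 10 a ratio above 0, so that 79.4% kept their sign, beside 82.8% of all genes. Across the 34 carriers, which share the same 4 libraries and their depths, Pearson's r between the ratios was 0.79 and Spearman's rho was 0.77. Across all genes they were 0.74 and 0.79. In bulk RNA, fewer cells of a kind and less RNA per cell cannot be told apart, and a share of counts can also move because other genes move.

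**Figure D2:**
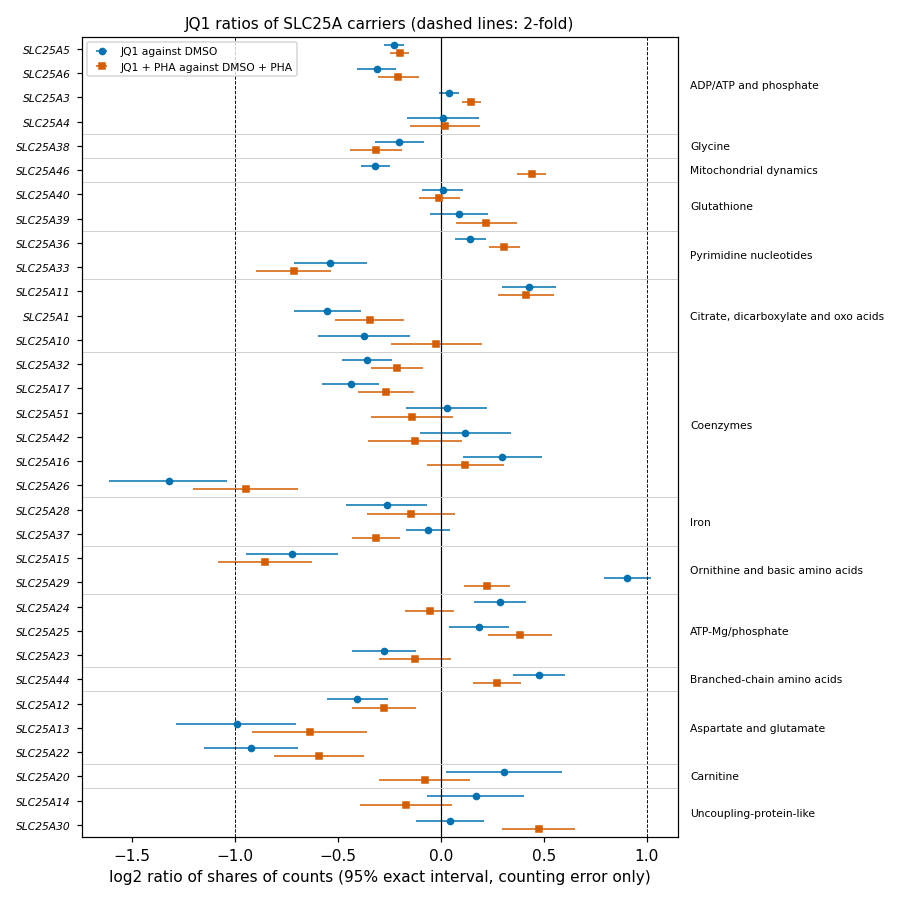
Log2 ratio of shares of counts (x axis) of 33 of the 34 carriers past the filter, for JQ1 against DMSO (circles) and JQ1 + PHA against DMSO + PHA (squares), with 95% exact intervals for counting error and dashed lines at 2-fold. SLC25A26 lies farthest to the left in both comparisons and SLC25A29 farthest to the right without PHA, and SLC25A46 lies on opposite sides of 0.

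Of the carriers of coenzymes, 7 of 8 passed the filter. For JQ1 against DMSO, 4 of the 7 had a ratio below 0, beside 5838 of all 11503 genes. In the presence of PHA 6 of the 7 did, beside 5923 of all 11503 genes. SLC25A26, which brings S-adenosylmethionine, the methyl donor, into the matrix, had the lowest JQ1 ratio of the 34 in both comparisons. It had an FPKM of 2.50, 1.0, 2.76 and 1.43, from 344, 144, 397 and 195 counts. Both JQ1 libraries were below both DMSO libraries. The log2 ratio was -1.32 (95% interval -1.61 to -1.04) without PHA, 2.50-fold lower, and -0.95 (-1.20 to -0.69) with PHA, 1.93-fold lower. By the deposited gene positions, SLC25A26 (ENSG00000144741) spans chr3:66133610-66388116 on GRCh38 and overlaps LRIG1. GENCODE release 44 places SLC25A26 on the plus strand. SLC25A26 shares 3.93% of its 50-base stretches with LRIG1, which had counts of 355, 792, 467 and 849 in the same order. LRIG1 was higher with JQ1, with log2 ratios of 1.09 and 0.94, and whether the counting separated the overlapping genes by strand is not given in the sources used here.

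SLC25A32, the folate carrier and the highest of the coenzyme carriers by mean FPKM, had an FPKM of 11.9, 9.31, 10.7 and 9.23. Its log2 ratios with JQ1 were -0.36 (-0.48 to -0.23) and -0.21 (-0.34 to -0.09). It overlaps DCAF13, whose ratios were -0.57 and -0.61, and shares 9.68% of its stretches with it. The peroxisomal SLC25A17 had log2 ratios of -0.44 and -0.27, with both intervals below 0. The NAD carrier SLC25A51 had an FPKM of 3.74, 3.81, 3.91 and 3.55, and its JQ1 ratios of 0.03 (-0.17 to 0.22) and -0.14 (-0.34 to 0.06) were within counting error of 0. Its paralog SLC25A52 had 4, 7, 3 and 3 counts. Of the 50-base stretches of SLC25A51, 30.8% also occur in SLC25A52, so reads of either could be counted for the other. SLC25A16 was 0.30 (0.11 to 0.49) with JQ1 on the log2 ratio scale, the only coenzyme carrier with an interval above 0 in a JQ1 comparison, and the ratios of SLC25A42 were 0.12 and -0.12, with intervals that include 0.

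The 3 detected carriers of aspartate and glutamate were all lower with JQ1 in both comparisons, as were 4891 of all 11503 genes. SLC25A13 (citrin), 1 of the paralogous pair that exchanges mitochondrial aspartate for cytosolic glutamate, had an FPKM of 2.36, 1.19, 2.27 and 1.46, from 287, 151, 289 and 176 counts. Its log2 ratios for JQ1 were -0.99 (-1.29 to -0.70) and, in stimulated cells, -0.64 (-0.91 to -0.36). SLC25A12 (aralar), its more abundant paralog, had an FPKM of 5.89, 4.45, 5.21 and 4.31. Both genes of the pair were lower in both JQ1 libraries, SLC25A12 by less, with log2 ratios of -0.40 (-0.55 to -0.26) and -0.27 (-0.43 to -0.12). SLC25A22, a glutamate carrier, had an FPKM of 2.18, 1.15, 2.11 and 1.40, with log2 ratios of -0.92 (-1.15 to -0.69) and -0.59 (-0.81 to -0.37). Its paralog SLC25A18 had 0 counts in all 4 libraries, which allows at most 0.152 to 0.161 CPM in a library, taking 3 counts as the limit.

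The carriers of ornithine and basic amino acids lay on opposite sides of 0. SLC25A15, the ornithine-citrulline carrier of the urea cycle, had an FPKM of 9.57, 5.81, 10.1 and 5.62, with both JQ1 libraries below both DMSO libraries. Its log2 ratios were -0.72 (-0.95 to -0.50) and -0.85 (-1.08 to -0.63). SLC25A29, a carrier of arginine and lysine, had an FPKM of 2.28, 4.27, 2.87 and 3.35, from 925, 1813, 1216 and 1343 counts. It had the highest JQ1 ratio of the 34 in resting cells, 0.91 (0.79 to 1.02), 1.87-fold, and a smaller one in stimulated cells, 0.22 (0.11 to 0.34). SLC25A2, the other ornithine carrier, had a single count, with DMSO + PHA, and 0 counts otherwise.

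The promoters of SLC25A26, SLC25A13, SLC25A22 and SLC25A15, which were lower in both JQ1 comparisons, and of SLC25A29, which was higher, are printed from RefSeq (GRCh38.p14), 250 bases before to 50 after the start, read 5′ to 3′ on the gene's strand. They lie at chr3:66220751-66221050 (plus strand), chr7:96322049-96322348 (minus strand), chr11:798232-798531 (minus strand), chr13:40789361-40789660 (plus strand) and chr14:100306395-100306694 (minus strand). The start is that of the Ensembl canonical transcript, which for SLC25A26 lies well inside the deposited span of the gene and not at its edge. Capitals mark the E-box CACGTG, to which MYC and related factors can bind, the CCAAT box, the GC box GGGCGG and the ETS core CCGGAA, each searched on both strands. Adjacent capitals are neighbouring or overlapping matches.
SLC25A26: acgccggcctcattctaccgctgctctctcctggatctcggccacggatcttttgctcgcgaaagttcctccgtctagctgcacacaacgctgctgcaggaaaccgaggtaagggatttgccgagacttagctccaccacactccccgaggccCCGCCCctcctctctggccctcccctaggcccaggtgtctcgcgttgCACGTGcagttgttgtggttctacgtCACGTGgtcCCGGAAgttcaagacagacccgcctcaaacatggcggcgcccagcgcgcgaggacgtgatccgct
SLC25A13: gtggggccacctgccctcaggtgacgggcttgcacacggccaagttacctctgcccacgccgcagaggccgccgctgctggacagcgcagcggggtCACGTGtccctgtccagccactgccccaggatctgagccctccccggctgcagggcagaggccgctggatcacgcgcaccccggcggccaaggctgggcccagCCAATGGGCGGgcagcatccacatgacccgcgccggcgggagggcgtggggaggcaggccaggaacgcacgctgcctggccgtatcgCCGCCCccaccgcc
SLC25A22: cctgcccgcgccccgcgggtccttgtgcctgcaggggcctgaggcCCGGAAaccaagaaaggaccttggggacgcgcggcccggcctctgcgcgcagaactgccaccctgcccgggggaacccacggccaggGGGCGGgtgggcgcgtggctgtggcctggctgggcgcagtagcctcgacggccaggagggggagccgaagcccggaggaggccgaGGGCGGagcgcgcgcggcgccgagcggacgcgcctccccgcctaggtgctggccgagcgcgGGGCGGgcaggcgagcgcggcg
SLC25A15: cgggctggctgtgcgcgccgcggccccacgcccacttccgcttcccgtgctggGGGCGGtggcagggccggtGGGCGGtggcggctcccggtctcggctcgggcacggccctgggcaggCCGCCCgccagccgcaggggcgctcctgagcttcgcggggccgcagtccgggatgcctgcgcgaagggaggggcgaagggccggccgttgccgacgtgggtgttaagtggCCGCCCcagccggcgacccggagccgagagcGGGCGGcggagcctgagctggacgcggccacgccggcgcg
SLC25A29: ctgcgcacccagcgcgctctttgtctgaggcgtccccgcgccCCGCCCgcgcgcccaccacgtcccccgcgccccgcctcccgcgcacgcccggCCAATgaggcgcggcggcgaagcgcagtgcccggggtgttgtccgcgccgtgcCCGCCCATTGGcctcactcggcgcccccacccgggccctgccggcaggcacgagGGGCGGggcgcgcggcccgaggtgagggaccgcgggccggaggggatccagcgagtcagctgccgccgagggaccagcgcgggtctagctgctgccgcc
The E-box letters are in the SLC25A26 and SLC25A13 windows and not in the other 3.

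Promoter sequences were found for 40 of the 48 members and set beside 27305 promoters of the same length. The sets were picked differently. For a member it was the promoter nearest the start of its Ensembl canonical transcript. For all promoters it was the first listed for each symbol, whatever the type of gene. The shares below are thus not of like sets. CACGTG was in 8 of the 40 (20%, beside 7.44% of all promoters), those of SLC25A13, SLC25A26, SLC25A31, SLC25A33, SLC25A36, SLC25A38, SLC25A46 and SLC25A51. For the 7 of these past the filter, the median log2 FPKM ratio for JQ1 against DMSO was -0.31, with values from -1.24 to 0.14, beside 0.01 for the 22 without it, which ran from -0.86 to 0.88. With PHA the medians were -0.31 and -0.10. The groups overlapped widely. The GC box was in 75% of the members' promoters and 44.6% of all, CCAAT in 45% and 35.7%, and CCGGAA in 35% and 17.6%. TATAAA was in 5% and 12%, and neither TGACTCA (AP-1, 4.92% of all) nor GCGCATGC (the core of the NRF1 motif, 3.27% of all) was in any of the 40. The median GC content was 66.8% for the members and 58.3% for all promoters.

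The 3 detected ADP/ATP carriers, of which SLC25A5 and SLC25A6 had the highest FPKM of the family, differed by less than 1.5-fold in both JQ1 comparisons. SLC25A5, whose levels are given above, was lower with JQ1 by log2 ratios of -0.23 (-0.27 to -0.18) and -0.20 (-0.25 to -0.15). SLC25A6 had an FPKM of 36.3, 29.2, 32.2 and 27.9 and log2 ratios of -0.31 (-0.41 to -0.22) and -0.21 (-0.31 to -0.11). SLC25A4, the form known for heart and muscle, had an FPKM of 4.99, 5.03, 5.35 and 5.43, and its ratios of 0.01 and 0.02 had intervals from -0.16 to 0.19 at the widest. SLC25A31, the form known for testis, had 0 counts throughout. SLC25A3, the phosphate carrier, had an FPKM of 23.2, 23.9, 21.8 and 24.1, with log2 ratios of 0.04 (-0.01 to 0.09) and 0.15 (0.10 to 0.20).

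Among the carriers of citrate, dicarboxylates and oxo acids, SLC25A11 and SLC25A1 had opposite signs. SLC25A11, the oxoglutarate-malate carrier that works beside the aspartate-glutamate carriers in the malate-aspartate shuttle, had an FPKM of 9.22, 12.4, 8.60 and 11.5. Its log2 ratios were 0.43 (0.30 to 0.56) and 0.42 (0.28 to 0.55), so it was higher in both JQ1 libraries where SLC25A12 and SLC25A13 were lower. SLC25A1, the citrate carrier, had an FPKM of 9.37, 6.40, 8.27 and 6.52 and log2 ratios of -0.55 (-0.71 to -0.39) and -0.34 (-0.51 to -0.18). The dicarboxylate carrier SLC25A10 was at -0.37 (-0.59 to -0.15) in the comparison of resting cells and at -0.02 (-0.24 to 0.20) in that of stimulated cells, and shares 62% of its stretches with an annotated gene that had 0 counts.

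The carriers of pyrimidine nucleotides also split. SLC25A33 had an FPKM of 8.72, 6.01, 8.82 and 5.38, with log2 ratios of -0.54 (-0.71 to -0.36) and -0.71 (-0.90 to -0.53). Its paralog SLC25A36 had an FPKM of 10.1, 11.2, 9.61 and 11.9, with log2 ratios of 0.14 (0.07 to 0.22) and 0.31 (0.23 to 0.38). The members of this pair thus lay on opposite sides of 0 in both JQ1 comparisons, each beyond counting error. Of the 50-base stretches of SLC25A33, 21.6% also occur in other genes, so its counts could include reads of those genes. For SLC25A36 the share was 0%.

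The carriers that serve heme synthesis, iron and glutathione differed by less than 1.5-fold in both JQ1 comparisons. The mitoferrin SLC25A28 had an FPKM of 9.24, 7.70, 7.66 and 6.94, with log2 ratios of -0.26 (-0.46 to -0.06) and -0.14 (-0.36 to 0.07). The mitoferrin SLC25A37, known for its role in red-cell precursors, had an FPKM of 4.55, 4.35, 4.25 and 3.41 and log2 ratios of -0.06 (-0.17 to 0.04) and -0.32 (-0.43 to -0.20). SLC25A38, the glycine carrier for heme synthesis, had an FPKM of 25, 21.8, 23.5 and 19 and was lower in both comparisons, by -0.20 (-0.32 to -0.08) and -0.31 (-0.44 to -0.19). Of the glutathione carriers, SLC25A40 varied the least of the 34, with an FPKM of 12.2, 12.3, 11.9 and 11.9, a highest value 1.03 times the lowest. Its paralog SLC25A39 had an FPKM of 3.85, 4.09, 3.34 and 3.90, with ratios of 0.09 (-0.05 to 0.23) and 0.22 (0.07 to 0.37).

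The ATP-Mg/phosphate carriers, which calcium regulates, had no common direction. SLC25A24 had an FPKM of 4.40, 5.37, 5.39 and 5.19, with JQ1 ratios of 0.29 (0.16 to 0.41) and -0.05 (-0.17 to 0.07). SLC25A25 had 4.59, 5.22, 3.69 and 4.81, with ratios of 0.19 (0.04 to 0.33) and 0.38 (0.23 to 0.54), and its overlapping antisense gene SLC25A25-AS1 had ratios of -1.09 and -1.03. SLC25A23 had 4.79, 3.96, 3.64 and 3.34, with ratios of -0.28 (-0.43 to -0.12) and -0.12 (-0.30 to 0.05). With JQ1 alone the first pair were above 0 and SLC25A23 below it. In the 18.2% of the 50-base stretches of SLC25A25 that also occur in SLC25A25-AS1, reads of the pair could be told apart only by strand. SLC25A44, the carrier of branched-chain amino acids, had an FPKM of 3.95, 5.50, 4.91 and 5.93 and was higher with JQ1 in both comparisons, by 0.48 (0.35 to 0.61) and 0.27 (0.16 to 0.39). SLC25A14, which resembles the uncoupling proteins, had an FPKM of 2.60, 2.93, 3.26 and 2.89, with intervals that include 0 in both JQ1 comparisons. SLC25A30, of the same group, had JQ1 ratios of 0.05 (-0.12 to 0.21) and, in stimulated cells, 0.48 (0.30 to 0.65).

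SLC25A46, an outer-membrane protein linked to mitochondrial fusion and fission, had JQ1 ratios on opposite sides of 0. It had an FPKM of 13.9, 11.2, 10.1 and 13.7, from 3727, 3128, 2829 and 3634 counts. The untreated and the doubly treated library were thus the highest, and either agent alone went with a lower level. Its log2 ratio for JQ1 was -0.32 (-0.39 to -0.25) in resting and 0.44 (0.37 to 0.51) in stimulated cells, a difference of 0.76 (0.66 to 0.86).

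The carriers differed less with PHA than with JQ1. For DMSO + PHA against DMSO, 0 of the 34 were past 2-fold in either direction, beside 2.10% of all genes higher and 1.19% lower, and past 1.5-fold SLC25A20 was higher (5.59% of all genes) and 0 were lower (3.83%). For JQ1 + PHA against JQ1, 0 passed 2-fold (1.04% and 1.03% of all genes) and 0 passed 1.5-fold (2.58% and 3.05%). By the interval, 5 carriers were above 0 and 12 below for DMSO + PHA against DMSO (24.7% and 25.1% of all genes), and 5 and 4 for JQ1 + PHA against JQ1 (15.6% and 15.7%). The medians were -0.06 and -0.03, beside -0.01 and -0.00 for all genes, and the median sizes 0.15 and 0.11, beside 0.16 and 0.10. The sign was the same in these 2 comparisons, which share no library, for 17 of the 34 (50%), beside 55.5% of all genes. Each of them shares libraries with both JQ1 comparisons.

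SLC25A20, the carnitine-acylcarnitine carrier that admits long-chain fatty acids for oxidation, had an FPKM of 2.32, 2.88, 4.27 and 4.04, from 187, 242, 359 and 322 counts. Both PHA libraries were above both libraries without PHA. Its log2 ratio for PHA was 0.88 (0.62 to 1.14), 1.83-fold, without JQ1 and 0.49 (0.25 to 0.74) with JQ1, and its ratios for JQ1 were 0.31 (0.03 to 0.59) and -0.08 (-0.30 to 0.14).

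When the JQ1 log2 FPKM ratio without PHA was subtracted from that with PHA, 0 of the 34 differed by over 2-fold in either direction, beside 1.99% of all genes upward and 2.93% downward. Past 1.5-fold, SLC25A46 differed upward (5.25% of all genes) and SLC25A29 downward (7.27%). For SLC25A29 the difference in log2 ratios of shares was -0.68 (-0.84 to -0.52).

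**Figure D3:**
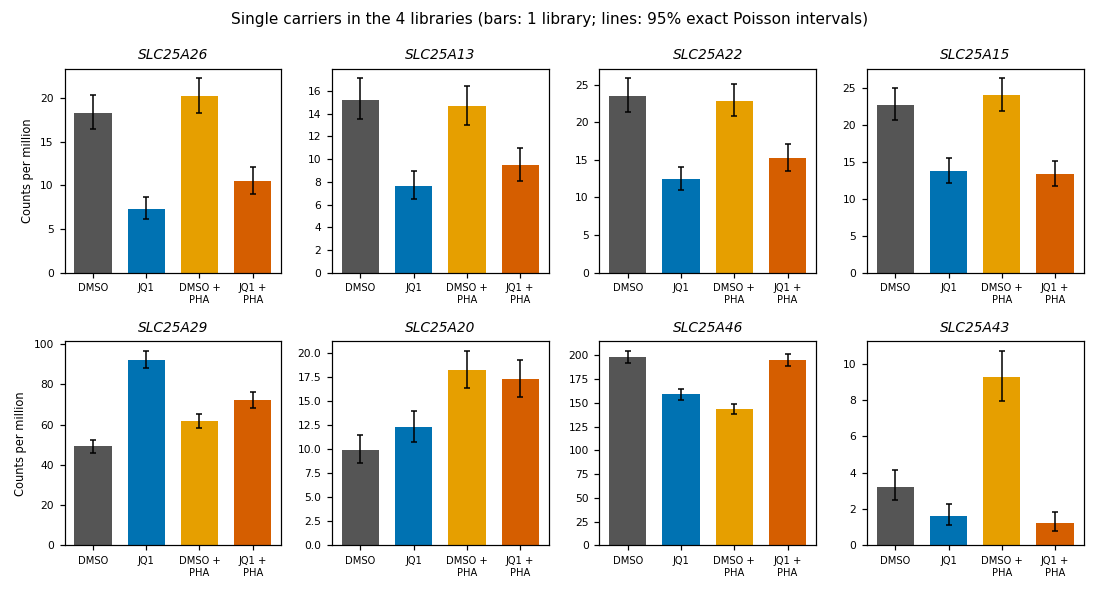
CPM (y axis, each panel with its own scale from 0) of 8 carriers in the 4 libraries. Bars are single libraries and the lines 95% exact Poisson intervals, for counting error only. SLC25A26, SLC25A13, SLC25A22 and SLC25A15 are lower in both JQ1 libraries, SLC25A20 is higher in both PHA libraries, SLC25A46 is lower in the libraries with a single agent, and SLC25A43 is high in the DMSO + PHA library alone.

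Of the 14 members below the filter, 4 (SLC25A18, SLC25A31, SLC25A47 and SLC25A48) had 0 counts in every library. SLC25A43, a carrier whose substrate is not established, lay below the filter with a mean FPKM of 0.653 and had the widest spread of the members with over 20 counts in every library. It had 61, 32, 182 and 23 counts. The DMSO + PHA library thus stood apart from the other 3, with a log2 ratio of 1.51 (1.09 to 1.95) to DMSO, 2.85-fold higher. JQ1 + PHA was 7.49-fold lower than DMSO + PHA (log2 ratio -2.90, -3.60 to -2.27), and JQ1 was lower than DMSO by a log2 ratio of -1.0 (-1.66 to -0.36). The JQ1 ratio with PHA was lower than that without by 1.91 on the log2 scale, with an interval of the difference from -2.79 to -1.03.

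SLC25A21, the oxodicarboxylate carrier, had 2, 3, 17 and 4 counts, also the most in the DMSO + PHA library, and overlaps PAX9, with 294 to 445 counts. SLC25A21 shares 36.2% of its 50-base stretches with PAX9, so reads of either could be counted for the other. SLC25A34 had 40, 82, 45 and 49 counts and a log2 ratio of 0.97 (0.41 to 1.55) for JQ1 against DMSO. SLC25A45, just under the filter with a mean FPKM of 0.963, had 348, 302, 334 and 333 counts and log2 ratios of -0.27 (-0.50 to -0.04) and 0.08 (-0.15 to 0.30). SLC25A27, SLC25A35, SLC25A41 and SLC25A53 had between 7 and 154 counts in a library. Of these, SLC25A27 had a JQ1 ratio with PHA of -0.68 (-1.12 to -0.25) and SLC25A53 one of 0.80 (0.30 to 1.32). The files also list 40 SLC25A pseudogenes, of which 7 had any count, at most 7 in a library.

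The genes that work with the carriers were followed in 7 lists, whose medians stand beside -0.01 and -0.02 for all genes. The carriers are brought to the inner membrane by receptors of TOM, the small TIM chaperones and TIM22, and of these 13 genes 3 were past 2-fold lower with JQ1 (8.65% of all genes) and 0 higher (5.22%), and with PHA 2 lower (8.00%) and 0 higher (3.69%). Their median log2 FPKM ratio was -0.59 and -0.47. TOMM40, the channel of the outer membrane, had an FPKM of 15.8, 4.75, 10.5 and 6.86, and TIMM13, a chaperone of the intermembrane space, 16.7, 5.97, 13.5 and 5.91. Of 8 folate and one-carbon enzymes past the filter, 2 were past 2-fold lower with JQ1 (8.65% of all genes) and 1 with PHA (8.00%), with medians of -0.52 and -0.67. MTHFD1L, which makes formate in the matrix, had an FPKM of 14.8, 2.40, 12.2 and 2.16, where the folate carrier SLC25A32 had 11.9, 9.31, 10.7 and 9.23.

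Of 9 enzymes of the malate-aspartate shuttle and citrate metabolism, 1 (GOT2, the matrix aspartate aminotransferase) was past 2-fold lower with JQ1 and 0 with PHA, beside 8.65% and 8.00% of all genes, with medians of -0.15 and 0.00. Of 9 iron-sulfur and heme enzymes past the filter, 2 (LYRM4 among them) were past 2-fold lower with JQ1 (8.65% of all genes) and 0 with PHA (8.00%), with medians of -0.15 and -0.17. Of 9 regulators of mitochondrial genes past the filter, 2 were past 2-fold lower and 1 higher in both comparisons, beside 8.65% and 5.22% of all genes without PHA and 8.00% and 3.69% with it. The coactivator PPARGC1B had an FPKM of 3.99, 0.715, 3.59 and 0.683 and its relative PPRC1 12.4, 4.30, 11 and 3.73, while MYC had 0.629, 1.55, 0.918 and 2.72. MYC passed the filter only through the JQ1 libraries, and PPARGC1B and LYRM4 only through the DMSO libraries. Each was under an FPKM of 1 in the libraries where it was lower, so the filter bears on these counts. Of 19 other transporters and channels of the mitochondrial membranes past the filter, 2 (SFXN4 and LETM1) were past 2-fold lower with JQ1 and 1 (SFXN4) with PHA, beside 8.65% and 8.00% of all genes, with medians of 0.08 and 0.06. SFXN4, a sideroflexin, had an FPKM of 6.15, 0.878, 5.13 and 1.04.

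In the same protein family under other symbols, 3 of 5 genes passed the filter, and in each JQ1 comparison 1 was past 2-fold higher (5.22% and 3.69% of all genes) and 0 lower (8.65% and 8.00%). UCP2, which belongs to the carrier family as SLC25A8 but is listed by its older name, had an FPKM of 7.86, 19.8, 6.42 and 17.2. Its log2 ratios of 1.33 (1.22 to 1.45) and 1.43 (1.30 to 1.55) were above those of all 34 genes named SLC25A in both JQ1 comparisons. MTCH1 and MTCH2, carrier-like proteins of the outer membrane, had ratios of -0.23 and -0.23 without PHA.

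**Figure D4:**
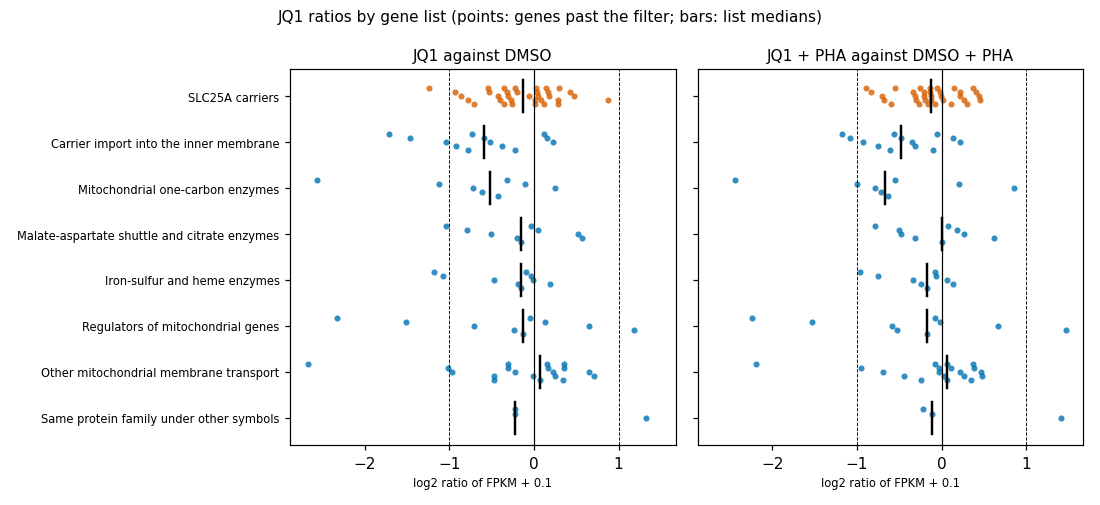
Log2 ratio of FPKM + 0.1 (x axis) for JQ1 against DMSO (left) and JQ1 + PHA against DMSO + PHA (right). Points are genes past the filter, black bars list medians and dashed lines 2-fold, with the SLC25A carriers in the top row. The carriers lie near 0 with medians of -0.13 and -0.13, while the import list has medians of -0.59 and -0.47 and the folate list -0.52 and -0.67.

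With 1 library per condition, differences between cultures are in every ratio and cannot be told apart from those of the treatments. SLC25A1, SLC25A10, SLC25A16, SLC25A17, SLC25A21, SLC25A27, SLC25A29, SLC25A30, SLC25A34, SLC25A42, SLC25A43 and SLC25A53 were given with their ratios after their values had been seen, as were the genes named from the lists.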

How the data were processed

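The RNA of Jurkat T cells had been sequenced in 4 conditions, with 1 library for each. The authors deposited 2 values per gene and library, a read count without normalization and an FPKM derived from it with a length per gene and the library total. Per the labels, reads were aligned to GRCh38 with Hisat2 2.0.4, while the submitters' processing notes also list TopHat2 2.0.9 and Cufflinks 2.1.1. The labels and the paper's methods name different library kits, 1 of them stranded. The counting program, its handling of strand and its annotation are not given in the sources used here. Shared and overlapping genes could take reads from each other.

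Genes were kept at a mean FPKM of at least 1, a pseudocount of 0.1 FPKM was added, and genes past 2-fold were counted. Ratios of the shares of counts have 95% exact (Clopper-Pearson) intervals, and intervals and limits cover counting error only. Differences between such ratios have intervals from the normal approximation on the log scale. A count of 0 allows up to 3 counts. Total counts ran from 18620954 to 19685401. The calls and intervals were run on simulated libraries that held counting error alone and no differences between cultures. That run checks the computation and does not bear on differences between cultures.

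Full values were given for members past 2-fold, the highest of each role group and 8 sets of paralogs. Members and lists were chosen with earlier results of these data known. Of the 14 symbols of the import list, TOMM70 and TOMM70A name the same gene. Gene positions and the overlaps found from them are those the authors deposited. Strands, lengths and transcript sequences are from GENCODE release 44, whose coordinates can differ from the deposited ones, and promoters from RefSeq (GRCh38.p14). Alternatives were the pseudocount, the filter, the fold threshold, scaling by TMM or by DESeq2 size factors, and centring on the median gene. Scaling factors came from R 4.3.3, through edgeR 4.0.16 and DESeq2 1.42.0. Everything else was computed in Python 3.11.15, using pandas 2.3.3, numpy 2.4.6 and, for intervals, scipy 1.17.1, and drawn in matplotlib 3.10.9. Results that need items withheld for evaluation, 1 carrier among them, are not reported here.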

Additional observations from a re-analysis of the deposited data

Results flagged for a closer look

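SLC25A46 had JQ1 ratios on opposite sides of 0, a fall without PHA and a rise with PHA, both beyond counting error, and the log2 ratios differed by 0.76. Its PHA ratios are built from the same 4 libraries and also had opposite signs, -0.46 without JQ1 and 0.30 with JQ1, again a difference of 0.76. SLC25A29 had PHA ratios of opposite sign, 0.33 without JQ1 and -0.35 with JQ1, a difference of -0.68. With 1 library per condition these differences were not tested.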

How the results depend on the processing

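No paired analysis was possible because each condition had 1 library, and for the same reason no library could be left out. For JQ1 against DMSO, the number of carriers past 2-fold went from 1 to 0 with a pseudocount of 1 or a filter at a mean FPKM of 5, since SLC25A26 was then under the threshold or the filter, and to 6 at a threshold of 1.5-fold. The median of the carriers was -0.23 with the filter at 5 and 0.00 with no filter. For JQ1 + PHA against DMSO + PHA, the number went from 0 to 1 (SLC25A43) with a filter at 0.1, with no filter, and with counts per kilobase of canonical transcript in place of FPKM, and to 5 at 1.5-fold. For DMSO + PHA against DMSO it went from 0 to 1 under the same 3 settings (SLC25A43) and at 1.5-fold (SLC25A20). The number whose JQ1 effect differed with PHA went from 0 to 1 (SLC25A43) under the same 3 settings and to 2 at 1.5-fold. The canonical length was chosen after seeing the data. The other 60 of 77 values for the family under 9 alternatives stayed within 1.5 times, for counts, or within the medians of the members' interval bounds, for medians. For 35 single carriers, 547 of 560 values stayed within their counting interval, 13 lay outside it, and 0 beyond counting error changed sign. SLC25A26 had a log2 FPKM ratio for JQ1 against DMSO of -0.81 with the pseudocount of 1 and -1.23 after centring. Depth limited most the members with few counts.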

Other observations

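The antisense genes of the family, whose symbols are a carrier's followed by AS and a number, were counted as rows of their own. Of the 4 in the files, 2 had counts, which summed to 875, 448, 795 and 398 (DMSO, JQ1, DMSO + PHA, JQ1 + PHA), almost all of them from SLC25A25-AS1. SLC25A25-AS1 was 830, 407, 762 and 352 in the same order, and SLC25A25 itself had 724, 861, 609 and 752. The sense gene had the larger count in both JQ1 libraries and the antisense gene in both DMSO libraries.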
